A study of Mus musculus with 2 samples.

Results

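Defensins and proteins with a WAP domain (the fold first seen in whey acidic protein) belong to the secreted antimicrobial proteins of epithelia. Defensins are short cationic peptides that damage microbial membranes. WAP-domain proteins are small, rich in disulfide bonds, and act mostly as inhibitors of serine proteases or directly against bacteria. In the mammary gland several of them are made by the secretory epithelium, and their levels are known to change through pregnancy, lactation and involution. The 9 genes described here are the beta-defensin gene Defb1, the WAP-domain genes Wfdc21, Wfdc18, Wfdc2, Wfdc12, Wfdc3 and Slpi, the cathelicidin gene Camp and the peptidoglycan recognition gene Pglyrp1. Camp and Pglyrp1 encode neither a defensin nor a WAP-domain protein, and stand with the others as antimicrobial genes. The members were found by their gene symbols, which matched 9 of 55536 genes of the deposited table, 1 identifier each. The members were chosen by family and also selected on their TPM values in the C3G and DMSO libraries, so every value below is a description.

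RNA was sequenced from mammary tumors of MMTV-PyVT mice, which carry the polyoma virus middle T antigen under the mouse mammary tumor virus promoter, active chiefly in mammary epithelium. One group received cyanidin-3-glucoside (C3G), an anthocyanin pigment of berries, and the other its vehicle dimethyl sulfoxide (DMSO), in both cases from the time of ductal hyperplasia until a set tumor burden. Each group is 1 library, all mice carry the transgene, and dose, age and the number of tumors per library are not given in the sources used here. The C3G library held 16081110 gene-assigned reads and the DMSO library 12192275, recovered from the deposited TPM values (a transcript level scaled by gene length and library total). With 1 library per group no test was possible and no spread between mice is known. Intervals in parentheses after a fold are exact 95% intervals for counting error alone. The log2 ratio of a gene is log2((C3G TPM + 1)/(DMSO TPM + 1)), and a call by size, higher or lower, requires 5 TPM in either library and a log2 ratio of 1 or more, or of -1 or less. The luminal epithelial marker list (Epcam, Krt8, Krt18 and 7 others) summed to 6510 TPM in the C3G tumor and 8596 TPM in the DMSO tumor, with none of the 10 genes at 0.

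The members did not move as 1 group. Defb1, Wfdc21 and Pglyrp1 were higher by size in the C3G tumor, Wfdc2 was lower by size, Wfdc18, Wfdc12 and Slpi were not called, and Wfdc3 and Camp were below the minimum of 5 TPM. Over all 12780 genes that reached this minimum, 3.1% were called higher and 4.3% lower, against 3 higher and 1 lower of the 7 members that reached it. The choice of members used this contrast, so nothing is read from that count. The median log2 ratio of those 7 members was -0.44, and that of all 12780 genes 0.13. Centred on genes with a mean of at least 10 TPM, which shifts every log2 ratio by 0.12, 31.0% of all calls were upward in place of 41.9%, and Pglyrp1 was no longer called.

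**Figure D1:**
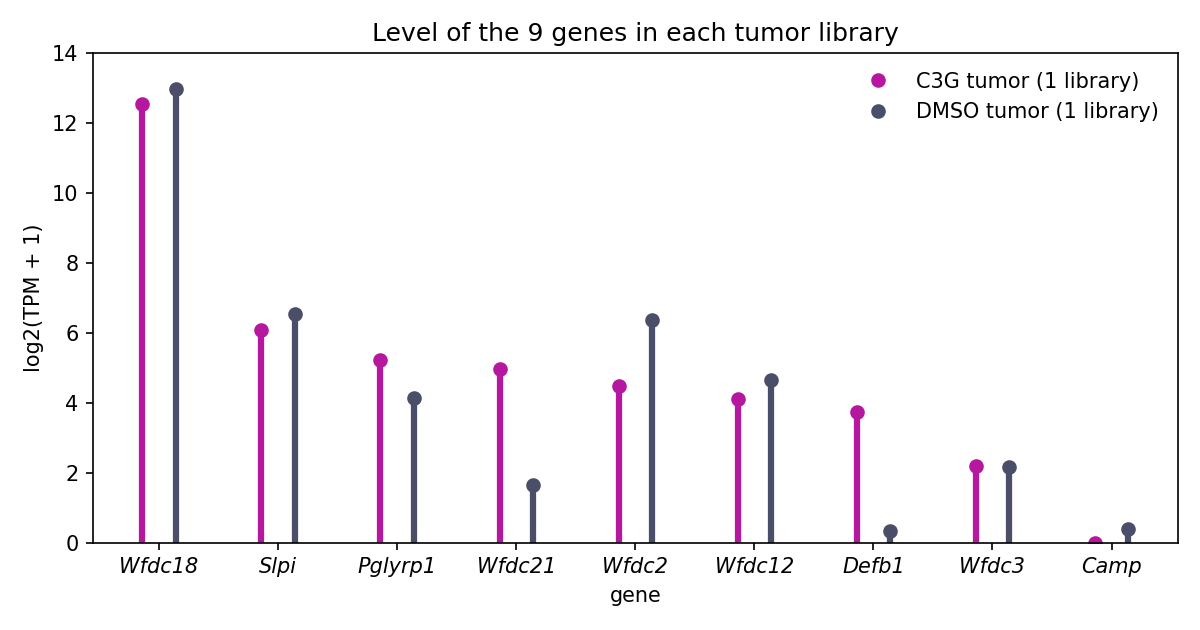
Level of each member as log2(TPM + 1), with the C3G library left of the DMSO library for each gene and 1 library per group. Wfdc18 stands far above the other genes in both tumors, at 5929 TPM in the C3G tumor and 8065 TPM in the DMSO tumor, and Camp is at 0 in the C3G tumor.

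Defb1 encodes beta-defensin 1, an antimicrobial peptide of epithelial surfaces (ENSMUSG00000044748, mm10 chromosome 8, 21776599 to 21795185, plus strand, 2 exons). It stood at 12.3 TPM in the C3G tumor, from 59 reads, and at 0.265 TPM in the DMSO tumor, from 1 read. The ratio was 46.6 (8.04 to 1869), and the width of that interval comes from the single DMSO read. A level of 0.794 TPM corresponds to 3 reads for this gene in the DMSO library, so the DMSO value lies under the floor of detection used here. With a pseudocount of 5 in place of 1, its log2 ratio was 1.72 in place of 3.40. At 12.3 TPM in the C3G tumor Defb1 ranked 8935 of 55536 genes, and it was thus a gene of middling level even where it was high. With a minimum of 20 TPM it was not among the genes assessed.

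Other defensins had few reads or none. The annotation held 82 alpha- and beta-defensin genes, of which 76 had no read in either library. Besides Defb1, Defb22 had 6 reads in the C3G library and 0 in the DMSO library, Defb29 had 4 and 1, Defb50 had 3 and 0, Defb14 had 1 and 2, and Defb45 had 1 and 0. No fold is given for these genes because of the few reads. Of the defensins, Defb1 was the one that reached 5 TPM in either tumor. Within 500 kb on either side of Defb1 lie 36 protein-coding genes, Defb1 included, 24 of them defensins, and 26 had no read in either library. Defb50, starting 46.9 kb away, was the nearest gene with reads. The genes of other families in that window that reached 5 TPM were Alg11, Nek3, Ckap2, Vps36 and Thsd1. Alg11, a glycosyltransferase, stood at 15.4 TPM in the C3G tumor and 11.2 TPM in the DMSO tumor. In the same order Nek3 stood at 12.9 and 12.5 TPM, and Ckap2 at 21.9 and 15.1 TPM. Vps36, an endosomal sorting subunit, stood at 42.1 and 38.0 TPM, and Thsd1 at 5.27 and 2.61 TPM. All of these genes had log2 ratios above 0, the highest 0.80 for Thsd1. None of them was called by size.

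Wfdc21, also known as Wdnm1-like, encodes a small secreted WAP-domain protein that mouse fat cells are known to release (ENSMUSG00000051748, chromosome 11, 83746940 to 83752642, plus strand, 3 exons). Its level was 30.2 TPM in the C3G tumor and 2.13 TPM in the DMSO tumor, from 72 and 4 reads. The C3G tumor was 14.2-fold higher (5.31 to 53.5), and the log2 ratio of 3.32 was the one at place 19 from the top of 12780 genes. Defb1 stood at place 17 of the same order. Both genes remained called under the pseudocounts of 0.1 and 5, with centring, with at least 50 reads and with rescaling. The plot of ratios and intervals shows their TPM ratios without these alternatives.

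**Figure D2:**
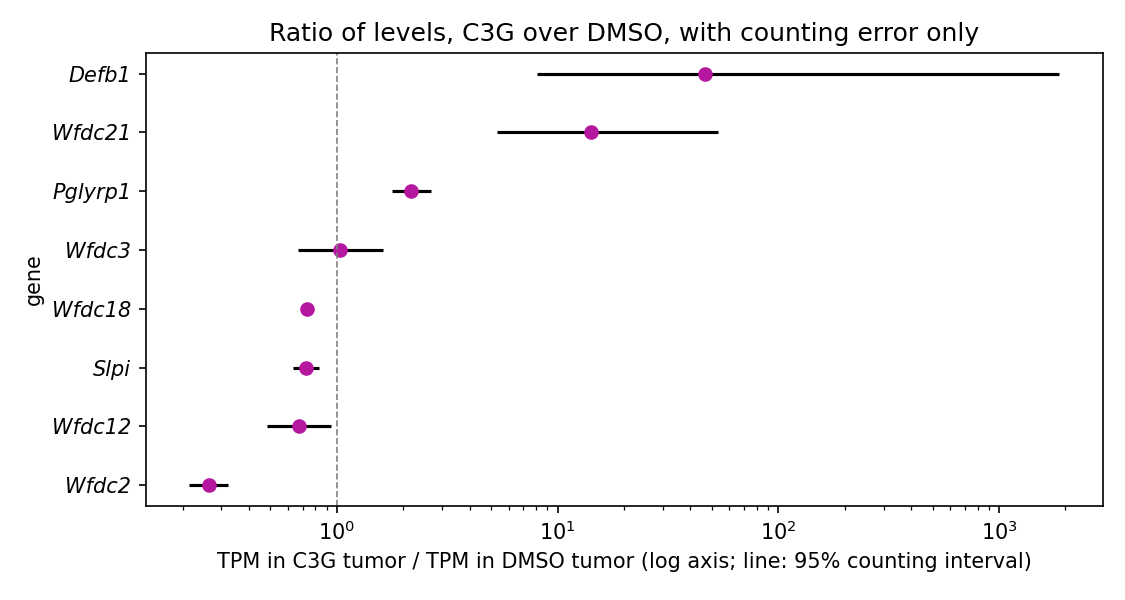
Ratio of TPM in the C3G tumor to TPM in the DMSO tumor on a log axis for the 8 members with a ratio, with lines for the exact 95% counting interval. The intervals of Defb1, Wfdc21 and Pglyrp1 lie above 1, those of Wfdc2, Wfdc12, Slpi and Wfdc18 below 1, and that of Wfdc3 (0.667 to 1.63) spans 1.

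Fat cell markers moved with Wfdc21 and Defb1 in these libraries. The log2 ratio was above 0 for all 8 adipocyte markers, their median was 2.47, and 7 were higher by size. Their summed level was 1354 TPM in the C3G tumor and 230.1 TPM in the DMSO tumor, and none was at 0. Endothelial markers were higher too, at a summed 68.1 TPM in the C3G tumor and 23.5 TPM in the DMSO tumor, with 5 of 6 called. Their part in the levels of Wfdc21 and Defb1 was not tested, and in bulk tissue more cells of a type and more RNA per cell cannot be told apart. Among 9296 genes with at least 10 TPM in the higher library and at least 50 reads, leaving out predicted genes, the 3 with a log2 ratio closest to that of Wfdc21 were Defb1, Retn and Orm1. This likeness rests on 2 samples, hence on 1 ratio per gene. For Defb1, itself a member selected on this contrast, it also depends on the pseudocount. With a pseudocount of 0.1 the log2 ratio was 5.09 for Defb1 and 3.77 for Wfdc21. With a pseudocount of 5 the values were 1.72 and 2.30 in the same order of genes. Retn encodes the fat cell hormone resistin, and its log2 ratio was 3.08. Orm1 encodes an acute phase plasma protein, and its log2 ratio was 2.95.

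On chromosome 11 Wfdc21 lies in a stretch of 48.7 kb with Wfdc17 and Wfdc18, and the 3 genes had log2 ratios of 3.32, 0.13 and -0.44 in that order. Wfdc18, also known as Expi or WDNM1, encodes an extracellular proteinase inhibitor of the mammary epithelium (ENSMUSG00000000983, chromosome 11, 83709015 to 83711348, plus strand). It was the most abundant member by far. Its level was 5929 TPM in the C3G tumor, place 13 of all 55536 genes, and 8065 TPM in the DMSO tumor, place 9. The reads were 39744 in the C3G library and 42661 in the DMSO library, so the counting interval of its ratio was narrow, 1.36-fold lower in the C3G tumor (1.34 to 1.38). That difference is beyond counting error and below the size required for a call. Wfdc17, known in mouse from activated macrophages and microglia, starts at -5.02 kb from the start of Wfdc18 and stood at 89.8 TPM in the C3G tumor and 82.2 TPM in the DMSO tumor. The summed level of macrophage markers was near even as well, 1694 TPM in the C3G tumor and 1814 TPM in the DMSO tumor. None of the 8 was called or at 0. Their log2 ratios were above 0 for 4 and below 0 for 4, from -0.33 for C1qa to 0.74 for Cd163.

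Wfdc18 made up 97.0% of the summed TPM of the 9 members in the C3G tumor and 97.4% in the DMSO tumor. The whole set summed to 6115 TPM in the C3G tumor and 8285 TPM in the DMSO tumor. Without Wfdc18 the sums were 186 and 219 TPM in the same order. A total over the members therefore follows Wfdc18 and hides the opposite differences of Wfdc21 and Wfdc2.

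The sequence upstream of Wfdc18 is shown with those of Wfdc2 and Pglyrp1, the members with the highest level and with the lower and higher call among the genes found in the RefSeq promoter table (build GRCm38.p6), which held 7 of the 9 members and neither Defb1 nor Wfdc21. Each sequence is the 250 bases before the RefSeq start, 5′ to 3′ on the gene's strand, with matches to the searched motifs in capitals. For Wfdc2, Pglyrp1, Slpi and Wfdc3 this window lies inside the gene span used here for positions, which begins farther upstream.
Wfdc18, chr11:83708754-83709003, plus strand: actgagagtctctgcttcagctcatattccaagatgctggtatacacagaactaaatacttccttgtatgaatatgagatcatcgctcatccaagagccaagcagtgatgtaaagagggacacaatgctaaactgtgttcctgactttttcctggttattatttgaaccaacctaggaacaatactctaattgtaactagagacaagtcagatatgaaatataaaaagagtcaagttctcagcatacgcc
Wfdc2, chr2:164562465-164562714, plus strand: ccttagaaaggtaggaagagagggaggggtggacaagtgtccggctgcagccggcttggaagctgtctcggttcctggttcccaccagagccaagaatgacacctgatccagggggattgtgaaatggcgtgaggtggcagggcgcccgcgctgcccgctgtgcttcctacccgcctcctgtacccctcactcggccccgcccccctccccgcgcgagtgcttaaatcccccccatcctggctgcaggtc
Pglyrp1, chr7:18884440-18884689, plus strand: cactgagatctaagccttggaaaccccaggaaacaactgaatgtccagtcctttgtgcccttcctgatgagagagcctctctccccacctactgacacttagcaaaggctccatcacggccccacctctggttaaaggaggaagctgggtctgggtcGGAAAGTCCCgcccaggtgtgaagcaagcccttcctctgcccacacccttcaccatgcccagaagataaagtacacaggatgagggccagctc
The motifs, searched on both strands, were TTCNNNGAA for STAT factors, TGANTCA for AP-1, TTGCNNAA for C/EBP factors and the NF-kB consensus. Of 32817 RefSeq promoter windows of the same length, 7.01% held the STAT letters, 6.75% the AP-1 letters, 9.57% the C/EBP letters and 7.25% the NF-kB consensus. Pglyrp1 held 1 match to the NF-kB consensus, at position -93. Slpi and Wfdc12 each held 1 match to the C/EBP letters, and Wfdc18, Wfdc2, Wfdc3 and Camp held no match to any of the 4. The upstream windows differed in base composition, with 64.8% G or C for Wfdc2, 55.6% for Pglyrp1 and 38.4% for Wfdc18.

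Wfdc2 encodes a secreted WAP-domain protein known in human as HE4, a serum marker of ovarian cancer (ENSMUSG00000017723, chromosome 2, 164562413 to 164568510, plus strand). Its level was 21.2 TPM in the C3G tumor and 80.7 TPM in the DMSO tumor, from 133 and 399 reads. It was 3.80-fold lower in the C3G tumor (3.12 to 4.66), with a log2 ratio of -1.88 at place 137 from the bottom of 12780 genes. The call stood under every alternative tried, and its log2 ratio was -1.71 with a pseudocount of 5. Luminal markers as a list were not lower to that extent, with a median log2 ratio of -0.08. Of the 10, 7 had log2 ratios below 0 and 3 above. The 1 called was the luminal keratin gene Krt19, at 246 TPM in the C3G tumor and 678 TPM in the DMSO tumor. The luminal keratin genes Krt18 and Krt8 had log2 ratios of -0.67 and -0.41. Myoepithelial markers had a lower sum as well, 593 TPM in the C3G tumor and 1162 TPM in the DMSO tumor, with none of 8 at 0. The 4 called lower were Acta2, Myh11, Cnn1 and Mylk. Log2 ratios were below 0 for 6 of the 8 and above 0 for 2. Those 2 were Krt5, at 48.4 TPM in the C3G tumor and 36.2 TPM in the DMSO tumor, and Trp63, at 14.9 and 11.9 TPM. Markers of cornifying epithelium summed to 24.9 TPM in the C3G tumor and 63.5 TPM in the DMSO tumor, with 4 of 10 at 0 in both. The difference lies mostly in Sprr1a, the 1 called, at 3.61 TPM in the C3G tumor and 31.8 TPM in the DMSO tumor. Only 3 of the 10 had a mean of at least 1 TPM, all 3 with log2 ratios below 0. Salivary gland markers summed to 12.9 TPM in the C3G tumor and 26.6 TPM in the DMSO tumor, with 2 of 9 at 0 in both. That sum rests on Prol1, at 2.35 TPM in the C3G tumor and 22.6 TPM in the DMSO tumor, while Amy1 was higher by size, at 8.66 and 3.48 TPM in the same order. The part of these cells in the level of Wfdc2 was not tested.

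Slpi encodes the secretory leukocyte protease inhibitor, which blocks the neutrophil proteases elastase and cathepsin G and also acts on bacteria (ENSMUSG00000017002, chromosome 2, 164354070 to 164389095, minus strand). It stood at 66.5 TPM in the C3G tumor and 91.7 TPM in the DMSO tumor, from 431 and 469 reads, 1.38-fold lower in the C3G tumor (1.21 to 1.58). Wfdc12, whose protein is known in mouse for antibacterial activity, stood at 16.2 TPM in the C3G tumor and 24.1 TPM in the DMSO tumor, 1.49-fold lower (1.07 to 2.08). Both ratios exclude 1 by counting error and neither reached the size of a call. For Wfdc12, 125 exonic bases (16.1%) overlap the gene A730032A03Rik, which had 2 reads in the C3G library and 6 in the DMSO library. The library kit does not mark strand, so reads in that overlap cannot be assigned by strand. Of the 50-base words in Wfdc12 transcripts 10.9% also occur in transcripts of 1 other gene, whose identity was not recorded. Of those in Pglyrp1 transcripts 2.67% occur elsewhere, while the other 7 members shared none. Wfdc3, which encodes a protein with several WAP domains, stood at 3.60 TPM in the C3G tumor and 3.46 TPM in the DMSO tumor, from 50 and 38 reads. Its ratio was 1.04 (0.667 to 1.63), so no difference was detectable at this depth.

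**Figure D3:**
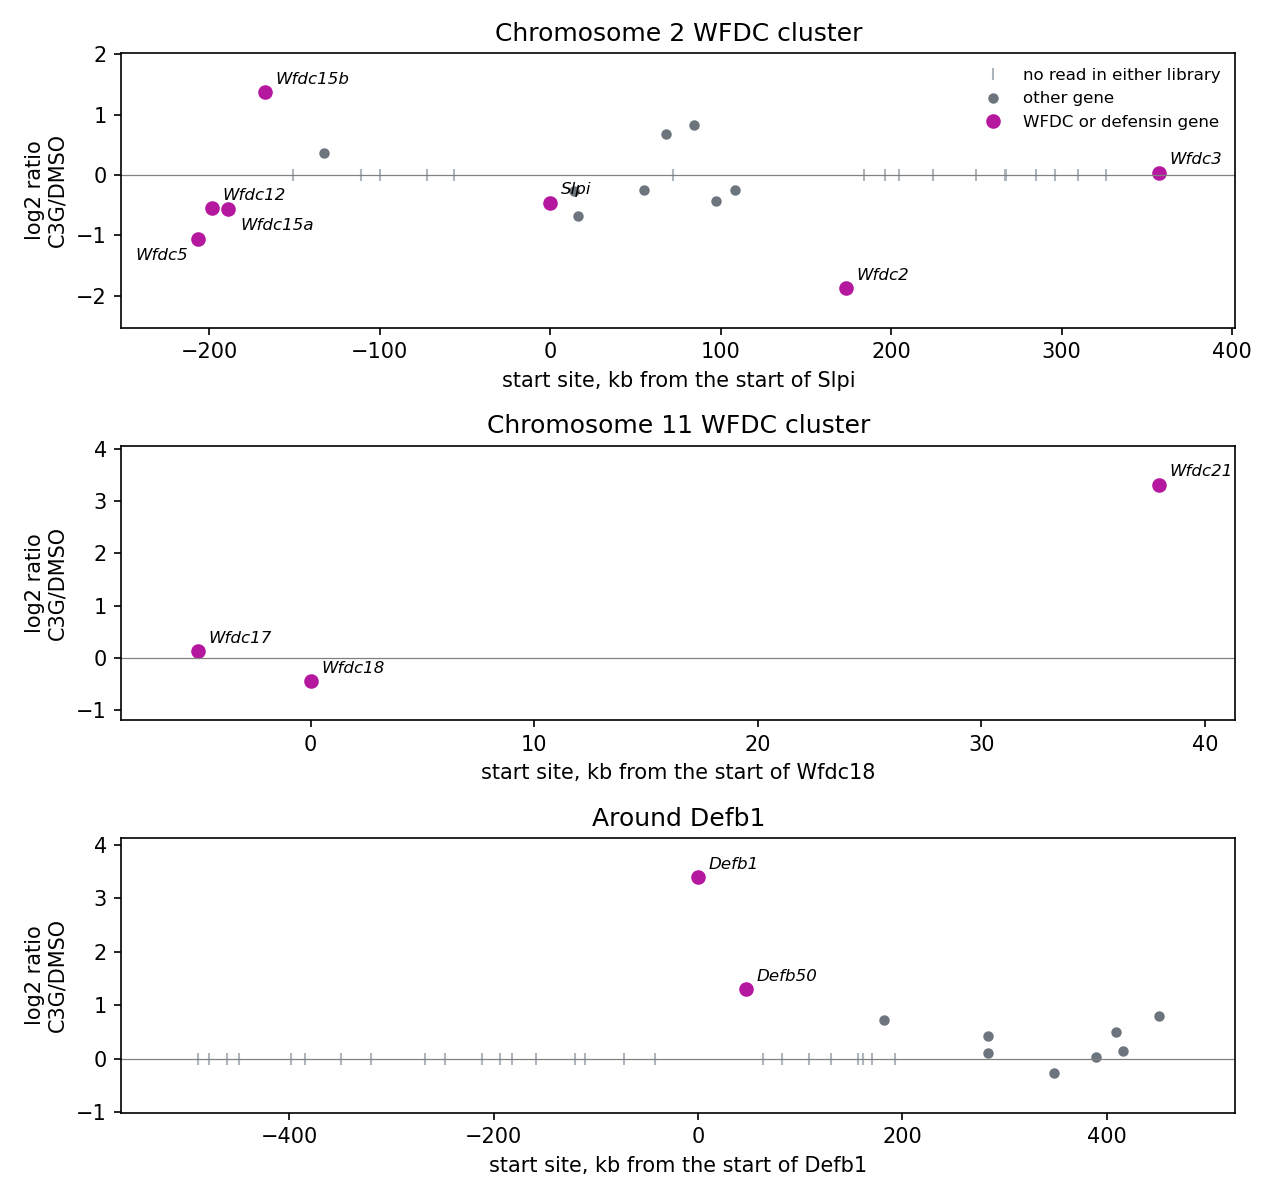
Log2 ratio of protein-coding genes by the distance of their start from that of Slpi, Wfdc18 or Defb1, with WFDC and defensin genes as large points, other genes as small points and genes with no read in either library as ticks at 0. Wfdc21 and Defb1 lie above their neighbours and Wfdc2 below, at log2 ratios of 3.32, 3.40 and -1.88.

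Slpi, Wfdc12, Wfdc2 and Wfdc3 lie in the WFDC cluster of chromosome 2, 570 kb long with 33 protein-coding genes, 16 of them of the WFDC family. Of these 33 genes, 18 had no read in either library and 6 reached 5 TPM. Wfdc2 was the 1 gene called among those 6. The genes of other families between Slpi and Wfdc2 included Sdc4, a cell surface heparan sulfate proteoglycan, at 389 TPM in the C3G tumor and 460 TPM in the DMSO tumor. Pigt, a subunit of the enzyme that attaches GPI anchors, stood at 60.0 TPM in the C3G tumor and 71.2 TPM in the DMSO tumor. Sys1, a Golgi membrane protein, stood at 13.1 TPM in the C3G tumor and 7.86 TPM in the DMSO tumor.

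The whole WFDC family held 21 genes, 9 with no read in either library and 9 with a mean of at least 1 TPM. Of those 9, 4 had log2 ratios above 0 and 5 below, with a median of -0.44, beside 0.10 over all 17468 genes with that mean. That median is the value of Wfdc18. As 6 of the family genes are members selected on this contrast, it is no separate result. Besides Wfdc21, the milk protein gene Wap was higher by size, at 68.4 TPM in the C3G tumor and 24.7 TPM in the DMSO tumor, 2.77-fold (2.23 to 3.46). Wfdc5 stood at 1.49 TPM in the C3G tumor and 4.17 TPM in the DMSO tumor, below the minimum for a call.

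**Figure D4:**
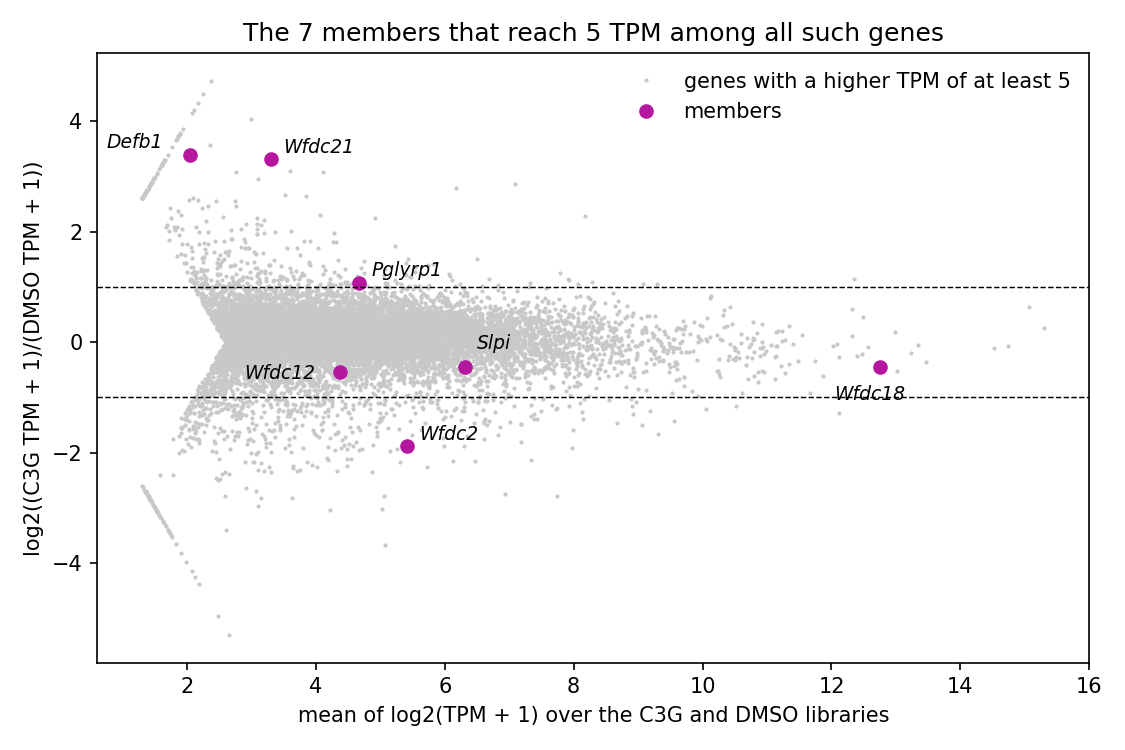
Log2 ratio against mean log2 level for the 12780 genes that reach 5 TPM in either library, with the 7 members that reach it as large points and dashed lines at the size required for a call. Defb1 and Wfdc21 lie near the upper edge at low mean levels, Wfdc2 below the lower line, and Wfdc18 at the high end of expression between the lines.

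Pglyrp1 encodes a peptidoglycan-binding protein that is stored in neutrophil granules and kills bacteria (ENSMUSG00000030413, chromosome 7, 18871331 to 18890459, plus strand). It stood at 36.1 TPM in the C3G tumor and 16.6 TPM in the DMSO tumor, from 364 and 132 reads, 2.18-fold higher in the C3G tumor (1.78 to 2.68). Its log2 ratio of 1.08 was close to the size required, and it was 0.93 with a pseudocount of 5 and 0.96 with centring, both short of a call. The other 3 genes of its family were at or near 0, Pglyrp2 with 7 reads in the C3G library and 4 in the DMSO library.

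Camp encodes cathelicidin, an antimicrobial peptide precursor of neutrophil granules (ENSMUSG00000038357, chromosome 9, 109847379 to 109849617, minus strand). It had 0 reads in the C3G library and 1 read in the DMSO library. For Camp 3 reads correspond to 0.720 TPM in the C3G library and 0.913 TPM in the DMSO library, so both values lie under the floor and no fold is given.

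Neutrophil markers were uneven in level. Of 14 markers, Ctsg, Elane, Ly6g and Retnlg had no read in either library, and the list summed to 86.8 TPM in the C3G tumor and 50.4 TPM in the DMSO tumor. The protease gene Prtn3 was called higher, at 25.6 TPM in the C3G tumor and 10.3 TPM in the DMSO tumor, and the calcium-binding protein gene S100a8 stood at 50.3 and 28.9 TPM in the same order. The receptor gene Csf3r stood at 4.49 TPM in the C3G tumor and 5.11 TPM in the DMSO tumor. The median log2 ratio over the 5 neutrophil markers with a mean of at least 1 TPM was -0.16. Elane and Ctsg, which encode protease targets of Slpi, were thus not detected in tumors with 66.5 and 91.7 TPM of Slpi.

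The order of levels differed between the tumors. In the C3G tumor Wfdc18 was followed by Slpi, then by Pglyrp1 and Wfdc21, whose levels of 36.1 and 30.2 TPM overlapped within counting error. Wfdc2, Wfdc12 and Defb1 came next, at 21.2, 16.2 and 12.3 TPM, each neighbouring pair within counting error. Wfdc3 and Camp came last. In the DMSO tumor Wfdc18 was followed by Slpi and Wfdc2, at 91.7 and 80.7 TPM and within counting error of each other. Wfdc12 and Pglyrp1 followed, at 24.1 and 16.6 TPM, and then Wfdc3, Wfdc21, Camp and Defb1, of which no neighbouring pair differed beyond counting error.

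Other secreted antimicrobial genes differed in both directions between the libraries, and 2 were called. Of 26 listed, 15 had a mean of at least 1 TPM, 7 above 0 and 8 below 0, with a median log2 ratio of -0.14. The acute phase gene Saa3 was higher by size, at 16.2 TPM in the C3G tumor and 6.82 TPM in the DMSO tumor, 2.38-fold (1.83 to 3.12). Dmbt1, a mucosal scavenger receptor that binds bacteria, was lower by size, at 7.17 TPM in the C3G tumor and 22.2 TPM in the DMSO tumor, 3.10-fold (2.69 to 3.57). The lysozyme gene Lyz1 stood at 8.65 TPM in the C3G tumor and 14.6 TPM in the DMSO tumor. The iron-sequestering proteins of milk and neutrophil granules were abundant and uncalled. Lcn2 stood at 4051 TPM in the C3G tumor and 4863 TPM in the DMSO tumor, and Ltf at 624 and 822 TPM in the same order. In both tumors Lcn2 was thus second to Wfdc18 among the genes of these lists.

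**Figure D5:**
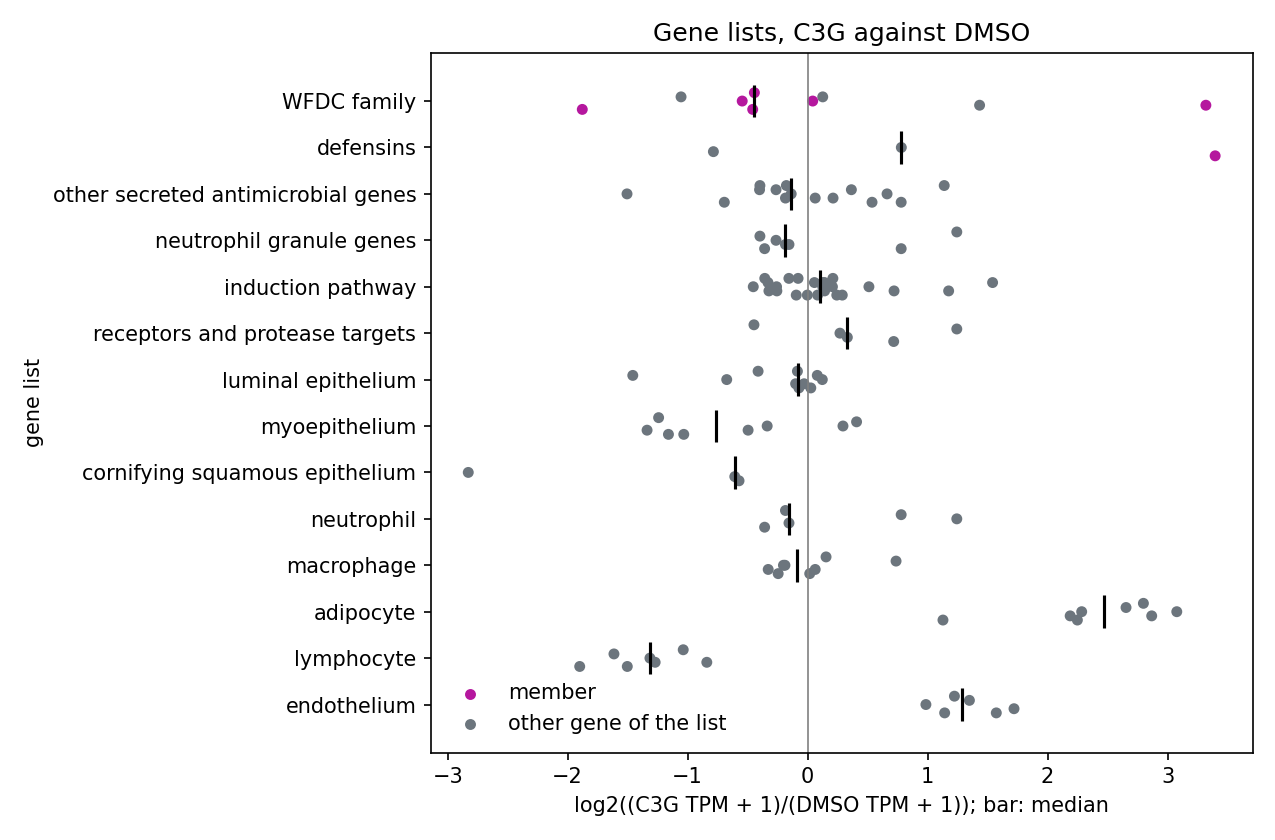
Log2 ratio of each gene with a mean of at least 1 TPM by gene list, members of the described set in color, with a bar at each list's median. The WFDC family spreads from -1.88 to 3.32, the induction pathway genes from -0.45 to 1.54 with a median of 0.10, and the adipocyte markers have a median of 2.47.

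The next list held genes of pathways known to induce epithelial antimicrobial proteins, from Toll-like receptors to NF-kB and interleukin receptors. It included an NF-kB inhibitor gene, so not every gene in it is an inducer. The median log2 ratio was 0.10 over 24 of 25 listed, beside 0.10 for all genes, and Il1b was the 1 called. Il1b, an inflammatory cytokine, stood at 15.5 TPM in the C3G tumor and 6.29 TPM in the DMSO tumor. The cytokine gene Il6 had the highest log2 ratio of the list, 1.54, at 4.12 TPM in the C3G tumor and 0.760 TPM in the DMSO tumor, a ratio of 5.42 (2.57 to 13.2), and was below the minimum of 5 TPM for a call. The flagellin receptor gene Tlr5 stood at 8.74 TPM in the C3G tumor and 4.91 TPM in the DMSO tumor, Il1r1 at 5.43 and 3.52 TPM, and Tnf at 7.44 and 10.6 TPM, in the same order of tumors. Among 13 receptors and protease targets, 5 reached 5 TPM and Prtn3 was the 1 called. The epithelial protease gene St14 stood at 111 TPM in the C3G tumor and 152 TPM in the DMSO tumor, the kallikrein gene Klk14 at 6.01 and 3.27 TPM, and the ATP receptor gene P2rx7 at 37.5 and 29.6 TPM, in that same order. Lymphocyte markers were lower in the C3G tumor, at a summed 12.3 TPM against 42.9 TPM in the DMSO tumor, with 3 of 10 called lower and none at 0 in both. Their part in the members' levels was not tested.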

How the data were processed

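Per the labels, RNeasy Plus kits gave the RNA and the TruSeq RNA kit v2, which does not mark strand, the libraries. Per the submitters' processing notes, reads were handled with featureCounts 2.0.0, Trimmomatic 0.38, FastQC and MultiQC and build mm10; the aligner is not given in the sources used here. The deposited values are TPM, scaled by the authors per gene length and library. All 55536 identifiers matched GENCODE mouse release M21, the source of symbols, positions and exon-union lengths. TPM times length was a whole multiple of 1 step for 100% of values above 0 (tolerance 0.01 of a step), and 1 step was taken as 1 read.

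Log2 ratios used a pseudocount of 1, which understates changes of low genes. Intervals are exact conditional (Clopper-Pearson) 95% intervals of counting error only. They take each read as an independent draw. Without molecular identifiers a read is not an independent molecule, so these intervals can be too narrow. The floor was 3 reads. No count test and no p-value was computed, with 1 library per group. All members were named. Each list other than cell type markers gave its called genes and up to 4 genes that reached 5 TPM, with log2 ratios farthest from 0. Neighbours of other families were named by position, as genes that reached 5 TPM around Defb1 or between Slpi and Wfdc2. Krt19, Csf3r, Prol1, Amy1, Il6, S100a9, Wfdc5, Wfdc17, Pglyrp2 and the defensins with few reads were named after their values were seen. So were Acta2, Myh11, Cnn1, Mylk, Krt5, Trp63, Sprr1a, C1qa, Cd163, Krt8 and Krt18. Members and lists were chosen with earlier results of these data known. The procedure was tested on simulated reads with counting error only and no spread between mice. The genes changed there had higher DMSO levels than Defb1 and Wfdc21, so changes of such low genes were not tested. Python 3.11.15, pandas 2.3.3 and scipy 1.17.1 were used. Alternatives are given in the closing section. Sequence sharing was searched as 50-base words of the members' transcripts.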

Additional observations from a re-analysis of the deposited data

How the results depend on the processing

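No paired analysis was possible because each group is 1 library, and no library could be left out. Over all genes, 179 were higher and 309 lower by size with a pseudocount of 5, 1086 and 1218 with a minimum of 1 TPM, 109 and 241 with a minimum of 20 TPM, and 218 and 312 with at least 50 reads, against 396 and 550 in the report. The median log2 ratio of other secreted antimicrobial genes was 0.063 with a minimum of 1 TPM, over 17 genes, and -0.26 with centring, against -0.14. That of the WFDC family stayed between -0.56 and -0.44, and in the report that median is the value of Wfdc18. Of the members, Wfdc21 and Wfdc2 were called under all 7 alternatives, Defb1 under all but the minimum of 20 TPM, and Pglyrp1 under all but the pseudocount of 5 and centring. Of 32 values of the 8 members with a counting interval, 31 moved by less than their counting error. The exception was Wfdc18 with centring, at -0.56 in place of -0.44. That counting error was 3.93 log2 units for Defb1 and 1.67 for Wfdc21. An error that wide cannot show how far these genes depend on the pseudocount. Camp has no counting interval, and its log2 ratio was -2.02 with a pseudocount of 0.1 in place of -0.38, on 1 read. Depth limits Defb1, Wfdc21 in the DMSO library, Wfdc3 and Camp most.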

Other observations

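A few antimicrobial genes that are usually expressed together were far apart in level, a pattern noticed after the values were seen. S100a8 stood at 50.3 TPM in the C3G tumor and 28.9 TPM in the DMSO tumor, while S100a9, whose protein forms calprotectin with that of S100a8, stood at 1.05 TPM in the C3G tumor and 1.33 TPM in the DMSO tumor, from 3 reads in each library, the floor of detection used here. Prtn3 had 244 reads in the C3G library and 77 in the DMSO library, while its chromosomal neighbour Elane, another neutrophil serine protease gene, had none in either.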
